A study of Homo sapiens with 6 samples.

Results

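The genes described here encode the proteins that the study names as degraded by DEG-35, IKZF2 and CSNK1A1, and 3 proteins reported elsewhere as cereblon neosubstrates, GSPT1, ZFP91 and ZNF276. They were taken by symbol and make up 5 of 6831 genes listed by the authors' deposited table of the comparison. That table holds only genes that passed an adjusted p of 0.05, so the presence of all 5 follows from how they were chosen and is not a result; 45.3% of all tested genes passed. The treated cells were MOLM-13, a human line established from acute myeloid leukaemia and labelled wild type, given DEG-35 at 50 nM for 24 h, and were set against the same line given the solvent DMSO for the same time. There were 3 libraries with DEG-35 and 3 with DMSO; no label says that they stem from separate cultures, and the p-values then measure only the spread between these libraries, which may be technical. The table gives fold changes on the log2 scale and p-values but no level and no value per library, so the depth is unknown, the labelled cell type could not be checked against its markers, and no single library can be shown. The header does not name the numerator. Fold changes are taken here as DEG-35 over DMSO, and with the opposite numerator every direction given would be reversed.

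Cereblon is the substrate receptor of a ubiquitin ligase built on the scaffold CUL4 and the adaptor DDB1. Some small molecules bind cereblon and change its surface so that it takes up proteins it would otherwise pass over, called neosubstrates, which are then ubiquitinated and destroyed by the proteasome. Many reported neosubstrates present a short loop with a glycine at its tip, which in zinc-finger proteins sits just after the second zinc-binding cysteine. IKZF2 (Helios) is a transcription factor of the Ikaros family, CK1α, the product of CSNK1A1, is a kinase that restrains p53 and β-catenin, GSPT1 (eRF3a) is a translation termination factor, and ZFP91 and ZNF276 are zinc-finger proteins. The compound acts on proteins, whereas the libraries measure mRNA, so no value below reports protein loss.

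The coding stretches of these loops are printed first, because the loop is a feature that many reported neosubstrates share across genes of different families. Each line gives 63 bases of coding sequence read from GENCODE release 29 transcripts on GRCh38, 5′ to 3′ on the coding strand, with the glycine codon in capitals and 10 codons on either side. For IKZF2 it is the finger known as the recognised site of Ikaros proteins, and for ZFP91 and ZNF276, which encode several such fingers, those that resemble each other are shown.
IKZF2: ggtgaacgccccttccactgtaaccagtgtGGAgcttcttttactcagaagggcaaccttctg
CSNK1A1: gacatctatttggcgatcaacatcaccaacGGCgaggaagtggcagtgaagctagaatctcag
GSPT1: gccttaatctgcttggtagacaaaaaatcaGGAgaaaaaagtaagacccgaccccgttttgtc
ZFP91: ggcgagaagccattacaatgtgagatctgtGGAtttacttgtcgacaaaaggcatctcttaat
ZNF276: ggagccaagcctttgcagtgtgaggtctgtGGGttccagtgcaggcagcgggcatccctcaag

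These stretches lie in coding exons. The glycine is encoded by codon 146 of IKZF2, codon 40 of CSNK1A1, codon 575 of GSPT1, codon 406 of ZFP91 and codon 530 of ZNF276, counted in the longest consensus coding sequence of each gene. The IKZF2 stretch spans exons 5 and 6 (chr2:213049819-213056833, minus strand) and the CSNK1A1 stretch spans exons 1 and 2 (chr5:149550155-149550877, minus strand). The GSPT1 stretch lies in exon 14 (chr16:11875867-11875929, minus strand). Those of ZFP91 (chr11:58616799-58617241, plus strand) and ZNF276 (chr16:89737889-89738021, plus strand) each span exons 10 and 11. These positions are on GRCh38, whereas the submitters' processing notes name hg19.

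Relatives of the members encode most of the same residues in this stretch, although their bases differ at more positions. The IKZF1 and IKZF3 stretches each differ from that of IKZF2 by 1 of 21 encoded residues, at codon 141 of IKZF2, although 13 bases differ for IKZF1 and 9 for IKZF3. The IKZF4 stretch encodes the same 21 residues as that of IKZF2. GSPT2, a second copy of the termination factor gene, differs from GSPT1 by 6 bases and 1 residue. CSNK1A1L, an intronless copy of CSNK1A1, differs by 10 bases and 5 residues. The ZFP91 stretch encodes the same 21 residues as that of ZNF692, another reported neosubstrate, with 18 differing bases, and shares 16 of 21 residues with that of ZNF276. Each of these stretches was picked by a short residue pattern equal or close to that of the gene it is compared with. This fixes part of every match. The lines below show the 6 relatives in the same frame.
IKZF1: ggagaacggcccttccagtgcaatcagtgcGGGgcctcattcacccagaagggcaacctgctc
IKZF3: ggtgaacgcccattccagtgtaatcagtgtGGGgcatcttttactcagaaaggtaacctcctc
IKZF4: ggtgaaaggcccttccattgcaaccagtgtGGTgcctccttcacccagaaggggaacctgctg
CSNK1A1L: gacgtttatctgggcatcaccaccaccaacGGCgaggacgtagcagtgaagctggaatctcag
GSPT2: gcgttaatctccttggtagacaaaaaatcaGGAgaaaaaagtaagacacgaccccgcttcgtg
ZNF692: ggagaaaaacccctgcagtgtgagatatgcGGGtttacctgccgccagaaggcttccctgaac

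A zinc finger with a glycine after its second cysteine is not rare. Of 19544 coding genes read, 657 (3.36%) encode at least 1, searched as a cysteine, any 2 residues, a cysteine, a glycine and, at the usual spacing, a histidine followed by a second histidine or a cysteine. IKZF2 encodes 4 such fingers, ZNF276 3 and ZFP91 2. Of the 657 genes 210 (31.96%) were listed in the authors' deposited table, 116 higher (55.2%) and 94 lower. A wider search took fingers with or without the glycine and with 2 to 4 residues between the cysteines, so it differs in more than the glycine. Of the 1011 genes it found, the 657 included, 322 (31.85%) were listed, 162 of them higher (50.3%). Among all tested genes 45.3% were listed, and of the listed genes 47.1% were higher; these differences were not tested, and the 657 and 1011 include genes that may not have been tested.

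mRNA of the study's 2 named targets was higher with DEG-35, by very different amounts. IKZF2 had a log2 fold change of 0.82 ± 0.131 (implied SE) in the authors' deposited table, which is 1.76 times the DMSO level with a 95% interval of 1.47 to 2.11. Its adjusted p there was 3.71e-09. Of the 3218 genes higher with DEG-35, 907 (28.2%) rose by more than IKZF2, so its rise stood in the upper part of the table without leading it. A bulk library cannot tell a rise in every cell from a larger share of cells with more of the transcript. CSNK1A1 had a log2 fold change of 0.18 ± 0.0613 in the authors' deposited table, or 1.13 times the DMSO level (1.04 to 1.23), with an adjusted p of 0.00988. That was among the smallest listed changes: 97.4% of the higher genes rose by more. The 95% intervals of IKZF2 and CSNK1A1 did not overlap.

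**Figure D1:**
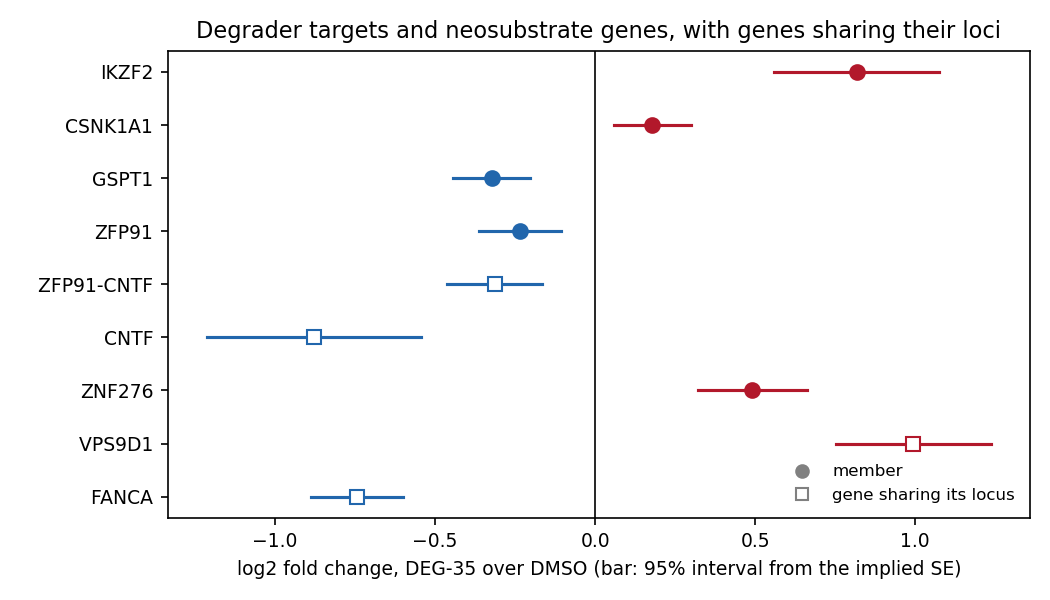
Log2 fold change of mRNA, DEG-35 over DMSO (horizontal axis), for the 5 members (filled circles) and for genes that share their loci (open squares), with 95% intervals from the implied standard errors of the authors' deposited table; red is higher and blue lower with DEG-35. IKZF2, CSNK1A1 and ZNF276 lie above 0, and GSPT1 and ZFP91 below it. No interval reaches 0, which follows from the threshold of the table and is not a result.

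How firmly each value is held differs with its precision. The standard error implied by the fold change and its p-value was 0.131 for IKZF2, above the table's median of 0.0891, and 24.5% of listed genes had a larger one. CSNK1A1 was measured more precisely than most genes, with 93.5% of listed genes at a larger standard error. At that precision the smallest log2 fold change that could enter the table was 0.14, and CSNK1A1 stood at 1.28 times this limit, whereas IKZF2 stood at 2.73 times its own. The CSNK1A1 rise was lost with Bonferroni adjustment. A downward shift of all log2 fold changes by 0.3, applied because the authors' scaling factors are unknown, would put it at -0.12 (adjusted p = 0.139). Here and below, adjusted p-values after a shift are upper limits, because genes outside the table are counted as not passing.

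Among the 3 other neosubstrate genes, GSPT1 and ZFP91 mRNA fell and ZNF276 mRNA rose. GSPT1 had a log2 fold change of -0.32 ± 0.0618 in the authors' deposited table, or 0.799 times the DMSO level (0.735 to 0.869), with an adjusted p of 9.61e-07. ZFP91 had a log2 fold change of -0.24 ± 0.0656 in the authors' deposited table, or 0.849 times the DMSO level (0.777 to 0.929), with an adjusted p of 0.00113. Both falls were small for the table, where 69.8% of the 3613 lower genes fell by more than GSPT1 and 87.0% by more than ZFP91. Neither call held under every shift of all values. Recentred on the table's median of -0.19, GSPT1 stood at -0.13 (adjusted p = 0.0935, an upper limit) and ZFP91 at -0.044 (adjusted p = 1). That median is over listed genes only and does not estimate the authors' scaling, so the recentred GSPT1 call is undecided. An upward shift by 0.3 would leave GSPT1 at -0.023 and turn ZFP91 to 0.065.

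ZNF276 rose to 1.41 times the DMSO level (1.25 to 1.58), and the authors' deposited table gave it a log2 fold change of 0.49 ± 0.0863 (adjusted p = 7.95e-08). It lay in the middle of the higher genes, of which 51.1% rose by more. Shifted down by 0.3 it would stand at 0.19 with an adjusted p of at most 0.0804, so whether its call would be lost is not known. In all, 3 members were higher and 2 lower, beside 21.4% higher and 24.0% lower among all tested genes. Of the 10 pairs of members, 8 had 95% intervals that did not overlap. For pairs of opposite direction this follows from the threshold of the table, which keeps each interval away from 0. Among pairs of the same direction, IKZF2 and CSNK1A1 did not overlap, nor did CSNK1A1 and ZNF276. The intervals of IKZF2 and ZNF276 overlapped, as did those of GSPT1 and ZFP91, and the differences between members were not tested.

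**Figure D2:**
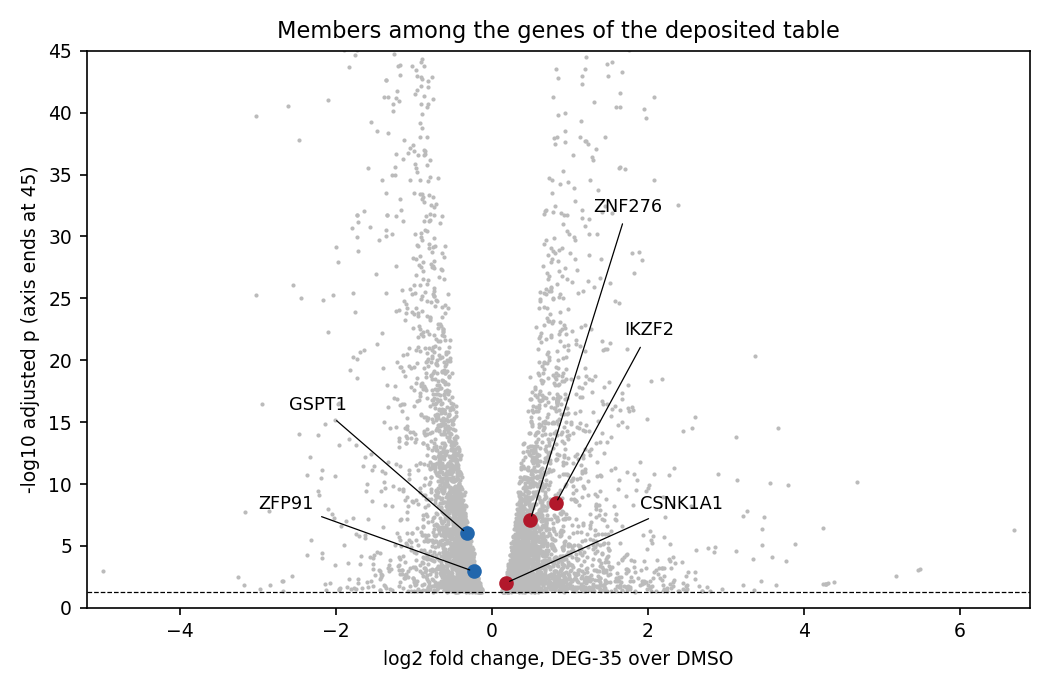
Log2 fold change, DEG-35 over DMSO (horizontal axis), against −log10 of the adjusted p (vertical axis) for the genes of the authors' deposited table; the dashed line marks an adjusted p of 0.05, and 390 genes above 45 on the vertical axis or with a p of 0 are not drawn. The members (red higher, blue lower) lie low and near the centre of the cloud, IKZF2 farthest out at 0.82.

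Part of what was counted for 3 of the members can also belong to other genes. In GENCODE release 29, which is not the hg19 annotation named in the notes, no stretch of 50 bases in the IKZF2 transcripts occurred in a transcript of any other gene, on either strand. For GSPT1 0.211% of such stretches did, none of them in GSPT2, although the coding sequences of these genes were 88.8% identical where aligned. The longest identical run of the GSPT1 and GSPT2 coding sequences was 49 bases. For CSNK1A1 36.5% of stretches were shared, 35.7% with AC021078.1, an overlapping noncoding transcript on the same strand, and 0.358% with CSNK1A1L, whose aligned coding sequence was 91.5% identical. Neither GSPT2 nor CSNK1A1L was among the listed genes. The sources used here give neither the strand setting of the counting nor the treatment of reads that fit 2 genes.

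ZFP91 and ZNF276 share their loci with genes that were listed themselves. ZFP91-CNTF, a read-through transcript that joins ZFP91 to the neurotrophic factor gene CNTF behind it, held 31.6% of the ZFP91 stretches. ZFP91-CNTF had a log2 fold change of -0.31 ± 0.0754 (adjusted p = 1.27e-04) in the authors' deposited table. Its interval overlapped that of ZFP91. CNTF had a log2 fold change of -0.88 ± 0.170 (adjusted p = 1.35e-06) in the authors' deposited table, 1.84-fold lower with DEG-35, a larger fall whose interval did not reach that of ZFP91. All 3 symbols of this locus were thus lower. They are not independent measurements where they share sequence.

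At the ZNF276 locus, genes on the opposite strand went both ways. FANCA, the Fanconi anaemia core complex gene, ends within ZNF276 on the other strand, and 27.2% of the ZNF276 stretches occurred in FANCA transcripts in reverse. FANCA had a log2 fold change of -0.74 ± 0.0737 (adjusted p = 1.00e-22) in the authors' deposited table, opposite in sign to ZNF276. VPS9D1, whose start overlaps that of ZNF276 on the other strand without a shared stretch of 50 bases, had a log2 fold change of 0.99 ± 0.124 (adjusted p = 1.04e-14) in the authors' deposited table, 1.99-fold higher. If strand was not used in counting, reads of ZNF276 and FANCA from the shared part cannot be told apart. VPS9D1 was named after its values were seen.

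**Figure D3:**
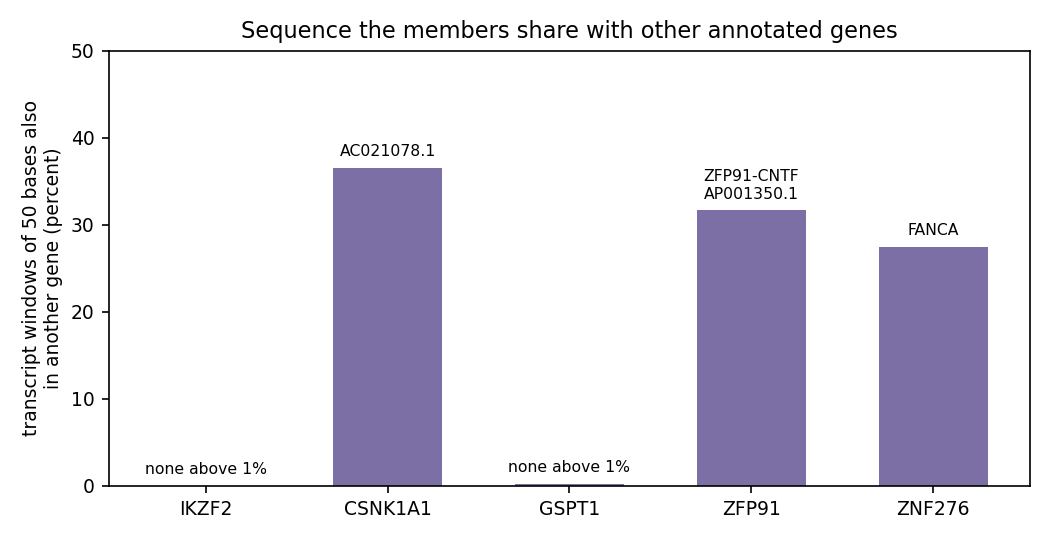
Share of all distinct 50-base stretches in each member's GENCODE transcripts that also occur, on either strand, in a transcript of another annotated gene (vertical axis, percent), with genes that hold over 1% of them named above the bars. CSNK1A1, ZFP91 and ZNF276 stand at 36.5%, 31.6% and 27.5%, and IKZF2 and GSPT1 at 0 and 0.211%.

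Genes of other reported cereblon substrates, most of them neosubstrates, were mostly lower where listed. Of these 8 listed genes, 4 would be higher if all values were shifted up by 0.3. Of 23 such genes 8 passed (34.8%, beside 45.3% of all tested genes), 1 of them higher and 7 lower. Shares of this and the following lists are over all their genes, of which some may not have been tested. Their median log2 fold change was -0.30, beside -0.19 over the table. WEE1, the kinase that holds CDK1 inactive before mitosis, had a log2 fold change of -1.93 ± 0.0854 (adjusted p = 2.12e-111) in the authors' deposited table, the largest change of the list. IKZF4 (Eos), the Ikaros relative whose loop matches that of IKZF2, had a log2 fold change of -0.61 ± 0.119 (adjusted p = 1.54e-06) in the authors' deposited table, against the rise of IKZF2. ZNF692, whose loop matches that of ZFP91, was the higher gene of the list, with a log2 fold change of 0.36 ± 0.0789 (adjusted p = 1.77e-05) in the authors' deposited table. In the pair of IKZF2 and IKZF4 the genes with the same encoded loop differed in direction. So did ZFP91 and ZNF692 as deposited, but not with all values shifted up by 0.3, and the fall of ZFP91 was no longer called after recentring. GLUL, glutamine synthetase, had a log2 fold change of -0.26 ± 0.0575 (adjusted p = 2.99e-05) in the authors' deposited table, where MEIS2 had one of -0.24 ± 0.0743. GLUL and MEIS2 are reported as cereblon's own substrates rather than neosubstrates, but they are counted in the list and its median. IKZF1, IKZF3 and GSPT2 were among the 15 genes not listed, which did not pass or were not tested. Of the 5 Ikaros genes 2 were listed (40%, beside 45.3% of all tested genes), IKZF4 and, by choice, IKZF2.

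Genes of the cereblon ligase had small fold changes where listed. Of 8 genes of the ligase and its ubiquitin-conjugating enzymes 5 passed (62.5%, beside 45.3% of all tested genes), 1 of them higher and 4 lower. The median log2 fold change of the 5 was -0.18, close to that of the table, and recentred on the table's median 3 would be higher and 2 lower. RBX1, the RING subunit that recruits the conjugating enzyme, had a log2 fold change of -0.42 ± 0.0780 (adjusted p = 4.19e-07) in the authors' deposited table. UBE2G1, which extends ubiquitin chains on neosubstrates, had a log2 fold change of -0.18 ± 0.0655 (adjusted p = 0.0144) in the authors' deposited table. DDA1, with a log2 fold change of -0.21 ± 0.0917 (adjusted p = 0.0435), and the adaptor DDB1, with a log2 fold change of 0.13 ± 0.0549 (adjusted p = 0.0440), were close to the threshold in the authors' deposited table. CRBN, CUL4A and CUL4B were not listed. RBX1 alone of the 8 passed an adjusted p of 0.01. Of 16 neddylation and COP9 signalosome genes, which switch cullin ligases on and off, 10 passed (62.5%), 2 of them higher and 8 lower, although 6 of these 10 would be higher if all values were shifted up by 0.3. Their median log2 fold change was -0.26, beside -0.19 over the table. SENP8, a protease that removes NEDD8, had the largest change, with a log2 fold change of 0.57 ± 0.215 (adjusted p = 0.0194) in the authors' deposited table. The signalosome subunit gene COPS3 had the smallest adjusted p, with a log2 fold change of -0.40 ± 0.0654 (adjusted p = 5.96e-09) in the authors' deposited table.

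Corepressor genes that work with Ikaros proteins were mostly lower where listed, and 7 of 9 would still be lower if all values were shifted up by 0.3. Of 13 genes of the NuRD complex, a deacetylase and chromatin-remodelling complex that Ikaros proteins recruit, 9 passed (69.2%, beside 45.3% of all tested genes), 1 of them higher and 8 lower. The 9 had a median log2 fold change of -0.39, beside -0.19 over the table. RBBP7, a histone-binding subunit, had a log2 fold change of -1.06 ± 0.0677 (adjusted p = 1.12e-53) and the methyl-CpG binding subunit gene MBD2 one of -0.66 ± 0.0786 (adjusted p = 6.43e-16) in the authors' deposited table. The remodeller CHD4 had a log2 fold change of -0.40 ± 0.0561 (adjusted p = 1.48e-11) and the deacetylase HDAC2 one of -0.39 ± 0.0638 (adjusted p = 7.57e-09) in the authors' deposited table. GATAD2B was the higher gene, with a log2 fold change of 0.22 ± 0.0670 in the authors' deposited table.

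Of 7 casein kinase 1 genes 2 were listed (28.6%, beside 45.3% of all tested genes), CSNK1A1 itself among them by choice, both higher unless all values are shifted down by 0.3, which turns CSNK1A1 lower. The other one was CSNK1G1, with a log2 fold change of 0.36 ± 0.0753 (adjusted p = 1.11e-05) in the authors' deposited table. CSNK1D, CSNK1E and CSNK1A1L were not listed. Of 8 genes of FAM83 proteins, which anchor casein kinase 1 at its sites of action, 2 were listed (25%), in opposite directions. FAM83D, which brings CK1α to the mitotic spindle, had a log2 fold change of -2.54 ± 0.128 (adjusted p = 4.63e-85) and FAM83H, which binds it at keratin filaments, one of 1.43 ± 0.163 (adjusted p = 3.20e-17) in the authors' deposited table.

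Both p53 inhibitor genes with which CK1α acts were listed and higher (100%, beside 45.3% listed and 21.4% higher among all tested genes). This list holds only these 2 genes and was drawn up with earlier results of these data known. A downward shift of all values by 0.3 would turn MDM4 lower. MDM2, a ubiquitin ligase for p53 and itself a p53 target gene, had a log2 fold change of 1.74 ± 0.0631 in the authors' deposited table, where MDM4, which holds p53 inactive together with CK1α, had one of 0.26 ± 0.0683 (adjusted p = 3.91e-04). Of 10 genes of the β-catenin destruction complex, in which CK1α primes β-catenin for GSK3, 4 were listed (40%, beside 45.3% of all tested genes), 2 higher and 2 lower, all of which a shift of 0.3 would turn one way, lower if down and higher if up. CTNNB1, the β-catenin gene, had a log2 fold change of -0.23 ± 0.0631 (adjusted p = 9.46e-04) in the authors' deposited table.

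Genes of translation termination were mostly lower where listed, although 4 of these 7 would be higher if all values were shifted up by 0.3. Of 10 termination and ribosome recycling genes 7 passed (70%, beside 45.3% of all tested genes), 2 of them higher and 5 lower. GSPT1 is among these 7 by choice, which raises the share. Over the 7 the median log2 fold change was -0.25, beside -0.19 over the table. ETF1 (eRF1), the partner that reads the stop codon, had a log2 fold change of -0.25 ± 0.0637 (adjusted p = 2.96e-04) in the authors' deposited table, where GSPT1 had one of -0.32. HBS1L, a relative of GSPT1 that acts in ribosome rescue, had a log2 fold change of -0.32 ± 0.0736 (adjusted p = 4.68e-05) in the authors' deposited table. PABPC1, the poly(A)-binding protein that contacts GSPT1, was higher, with a log2 fold change of 0.38 ± 0.0546 (adjusted p = 5.74e-11) in the authors' deposited table.

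Genes of nonsense-mediated decay, the surveillance pathway coupled to termination, were mostly lower where listed, and 5 of 7 would still be lower if all values were shifted up by 0.3. Of 14 such genes 7 passed (50%, beside 45.3% of all tested genes), 1 of them higher and 6 lower. Their median log2 fold change was -0.34, beside -0.19 over the table. The exon junction genes MAGOH, with a log2 fold change of -0.49 ± 0.0742 (adjusted p = 4.92e-10), and EIF4A3, with a log2 fold change of -0.45 ± 0.0676 (adjusted p = 2.50e-10), had the most negative log2 fold changes of the list in the authors' deposited table.

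Genes of non-canonical NF-κB signalling, in which ZFP91 has been reported to stabilise the kinase NIK, went both ways. Of 8 such genes 5 passed (62.5%, beside 45.3% of all tested genes), 2 of them higher and 3 lower, as also under each shift. Their median log2 fold change was -0.47, beside -0.19 over the table. CHUK, the kinase IKKα, had a log2 fold change of -0.61 ± 0.0713 (adjusted p = 1.11e-16) in the authors' deposited table. RELB, a transcription factor at the end of the pathway, had a log2 fold change of 0.98 ± 0.206 (adjusted p = 1.08e-05) in the authors' deposited table. The other higher gene was NFKB2, at 0.35 ± 0.132. The other lower genes were TRAF2, at -0.61 ± 0.119, and TRAF3, at -0.47 ± 0.0860. The activity of the pathway was not tested, and the median of the list does not measure it. The NIK gene MAP3K14 was not listed.

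**Figure D4:**
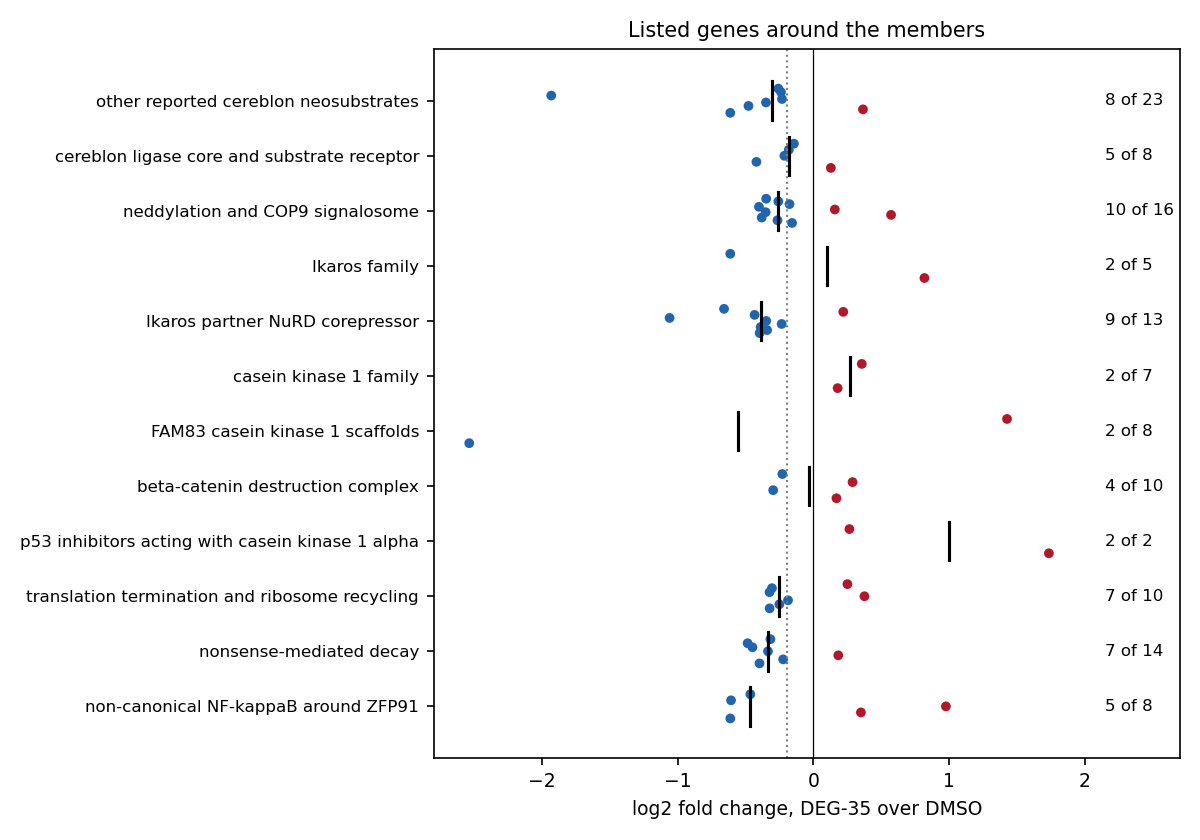
Log2 fold change, DEG-35 over DMSO (horizontal axis), of the listed genes in each list around the members (points, red higher and blue lower), with the list's median as a black bar, the median of all 6831 listed genes as a dotted line at -0.19 and the number listed of the number in the list at the right. The NuRD median lies at -0.39 and the nonsense-mediated decay median at -0.34, and the Ikaros family and FAM83 lists each hold 1 gene on either side of 0. The list labelled as other reported neosubstrates also holds GLUL and MEIS2, reported as cereblon's own substrates.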

How the data were processed

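Per the labels' protocols, RNA from 6 MOLM-13 samples (3 with DEG-35, 3 with DMSO) was made into mRNA libraries with a SMARTer kit. The submitters' processing notes name hg19, STAR, featureCounts and DESeq2, without versions or options. The authors deposited 1 table, with columns for the log2 fold change, the p-value and its adjusted form. The deposited values give no counts or levels, so the planned count tests could not be run, and calls rest on the adjusted values that the authors deposited, as planned for such a table. That 15064 genes were tested was computed from them (adjusted p times rank over p, within 0.1% for all 2789 genes with p above 1e-04). The implied SE is the absolute log2 fold change over the normal quantile of the two-sided p, which assumes a Wald test. Both steps were checked on data simulated under the same formulas, which checks the computation and not the Wald assumption. Intervals are the log2 fold change ± 1.96 implied SE. They cover the spread between libraries as modelled by the authors.

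The members and the 13 lists were chosen with earlier results of these data known, and no list was tested as a set. The rule for named genes takes all members, up to 4 genes per list with the smallest adjusted p, their paralogs and overlapping neighbours, CRBN, MDM2 and MDM4; some it takes are counted but not named. GATAD2B, SENP8, MEIS2, NFKB2, VPS9D1, ZFP91-CNTF, AC021078.1 and genes named as not listed beyond these were chosen after their values were seen. Symbols were also looked up through RefSeq synonyms, which added none. Coding stretches and 50-base stretches come from GENCODE release 29. Computation used Biopython 1.88, SciPy 1.17.1, NumPy 2.4.6, pandas 2.3.3, Matplotlib 3.10.9 and Python 3.11.15.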

Additional observations from a re-analysis of the deposited data

How the results depend on the processing

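No paired analysis was possible because the table holds no per-library values, and for the same reason leaving out a replicate, other size factors and other count filters were not run. An adjusted p of 0.01 kept the calls of all 5 members, and reduced the listed genes to 1 of 8 for the ligase list and 6 of 16 for the neddylation list. Symbol matching changed no list. A minimum absolute log2 fold change of 1 left 1251 genes (637 higher, 614 lower) and none of the members, by construction, at 0.82 for IKZF2, 0.18 for CSNK1A1, -0.32 for GSPT1, -0.24 for ZFP91 and 0.49 for ZNF276. Bonferroni adjustment over 15064 tests left 3154 genes (1347 higher, 1807 lower) and lost CSNK1A1 (0.18) and ZFP91 (-0.24), by construction. A shift by 0.3 down turned CSNK1A1 to -0.12 and left the call of ZNF276 (0.19) undecided. A shift by 0.3 up turned ZFP91 to 0.065 and lost the call of GSPT1 (-0.023). Recentring on the table's median lost the call of ZFP91 (-0.044) and left that of GSPT1 (-0.13) undecided. IKZF2 kept its direction and call under each shift. These shifts treat genes outside the table as not passing, so the adjusted p-values after a shift are upper limits.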
